A study of Mus musculus with 16 samples.

Results

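The circadian clock genes examined here are 10 genes of the molecular clock, Clock, Arntl, Per1, Per2, Per3, Cry1, Cry2, Nr1d1, Nr1d2 and Dbp, taken by symbol from the 23284 gene symbols counted in each library. Their RNA was measured by bulk RNA sequencing in 16 lung tumors of mice on a mixed background given as 129/SvJ; C57BL/6. Of these, 9 tumors carried the genotype Max -/- (RPMax-/-, called Max null here) and 7 were wild type for Max (RPMaxwt). All 16 came from RP mice, whose gene deletion followed delivery of Ad.CMV.Cre, an adenovirus with Cre under the CMV promoter, into the trachea. The labels do not spell out the letters RP, so the alleles shared by both groups are not named there. The labels also do not state the age of the mice, which cells took up the virus, whether the tumors came from separate mice, or the hour at which a tumor was taken. The p-values below therefore measure the spread between these 16 samples.

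The mammalian clock is a feedback loop of transcription. CLOCK and BMAL1, the product of Arntl, bind E-box sequences as a pair and activate Per and Cry genes, whose proteins return to block that pair. BMAL1 and CLOCK also activate Nr1d1 and Nr1d2, encoding the nuclear receptors REV-ERBα and REV-ERBβ that repress Arntl, and Dbp, whose product activates genes with D-box sequences. In most tissues kept on a light cycle, Arntl RNA peaks in a phase roughly opposite to that of Nr1d1, Dbp and Per3, and the level of a clock gene depends on the hour of sampling. MAX, with a MYC-family partner, also binds the E-box CACGTG.

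Promoter windows of 250 bases before each annotated start (RefSeq, GRCm38.p6) were searched on both strands for letters known from clock biology. The table held 9 of the 10 genes, with 13 windows, and Per2 was not among them. The E-box CACGTG lay in windows of 2 of the 9 genes, Per1 and Cry1, against 6.86% of all 27025 genes with a window. The related E-prime box CACGTT, read here on the other strand as AACGTG, lay in 3 of the 9, Cry1, Cry2 and Nr1d1, against 4.50% of all genes. The D-box letters TTATGTAA or TTACGTAA lay in 1 of the 9, Per3, against 1.10% of all genes. The nuclear receptor core TAGGTCA and the cAMP response element TGACGTCA were in 0 of the 9, against 2.55% and 1.77% of all genes. These shares are a description of letters in short windows. The 5 windows with a match follow, 5′ to 3′ in the direction of the gene, with capitals marking the matches. Whether a matched site is bound in these tumors was not tested, and sites outside the windows or with other letters were not searched for.
Per1: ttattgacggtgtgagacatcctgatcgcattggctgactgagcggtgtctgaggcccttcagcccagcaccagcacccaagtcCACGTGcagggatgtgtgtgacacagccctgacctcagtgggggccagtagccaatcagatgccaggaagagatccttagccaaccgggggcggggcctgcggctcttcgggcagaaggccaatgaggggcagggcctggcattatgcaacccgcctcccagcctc
Cry1: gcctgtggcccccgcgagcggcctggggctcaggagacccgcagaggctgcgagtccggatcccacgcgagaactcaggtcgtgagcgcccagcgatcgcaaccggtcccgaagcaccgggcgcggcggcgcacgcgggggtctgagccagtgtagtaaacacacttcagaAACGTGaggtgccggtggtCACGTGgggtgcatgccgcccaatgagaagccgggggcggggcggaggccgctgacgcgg
Cry2: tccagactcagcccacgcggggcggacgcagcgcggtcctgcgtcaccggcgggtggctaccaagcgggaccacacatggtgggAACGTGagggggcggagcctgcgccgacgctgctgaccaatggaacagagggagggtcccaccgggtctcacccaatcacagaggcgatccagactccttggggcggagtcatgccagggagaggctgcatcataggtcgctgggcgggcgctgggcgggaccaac
Nr1d1: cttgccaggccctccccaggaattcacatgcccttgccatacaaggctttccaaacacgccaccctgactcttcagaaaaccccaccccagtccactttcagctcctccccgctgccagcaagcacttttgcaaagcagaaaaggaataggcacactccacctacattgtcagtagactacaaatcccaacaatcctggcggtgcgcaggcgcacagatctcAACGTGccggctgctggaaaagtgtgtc
Per3: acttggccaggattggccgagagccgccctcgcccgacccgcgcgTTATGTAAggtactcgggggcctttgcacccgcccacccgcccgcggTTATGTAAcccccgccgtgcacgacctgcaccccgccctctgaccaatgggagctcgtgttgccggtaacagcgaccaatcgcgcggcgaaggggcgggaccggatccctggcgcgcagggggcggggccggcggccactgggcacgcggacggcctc
In Per1 (chr11:69098699-69098948, plus strand) the E-box ended 161 bases before the start. In Cry1 (chr10:85185055-85185304, minus strand) the E-box ended 55 bases and the E-prime box 74 bases before it. The E-prime box ended 161 bases before the start of Cry2 (chr2:92434070-92434319, minus strand) and 23 bases before that of Nr1d1 (chr11:98775378-98775627, minus strand). Per3 (chr4:151044666-151044915, minus strand) held 2 copies of the same D-box, ending 198 and 151 bases before the start. A second annotated Per1 start and the windows of Clock, Arntl, Nr1d2 and Dbp held none of these letters.

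The files of each tumor held 8.66 to 15.11 M reads in genes, and the 10 members had 133 to 4132 reads per tumor. Max itself was at 64.2 to 83.5 CPM (reads per M reads in genes, scaled between libraries) in the null and 52.4 to 75.9 in the wild-type tumors (log2 difference 0.18 ± 0.11, SE; edgeR adjusted p = 0.281). A count over the whole gene does not test the loss of single exons, so these values do not check the labels. The neuroendocrine genes Chga and Syp were present in each tumor, as were Chgb, Calca, Ncam1, Insm1, Uchl1 and Dll3. Neurod1 was at 0 CPM in null tumors 1, 3 and 9 and wild-type tumor 3. A neuroendocrine list had 0 of its 8 tested genes called between groups (edgeR, with 2 higher and 1 lower at an unadjusted p below 0.05). Libraries differed in ways that followed the groups. Multiply aligned reads, which match several places in the genome, were 9.17% to 11.8% of the total in the null and 12.3% to 22.2% of the total in the wild-type files, without overlap, and were highest in wild-type tumors 7, 4 and 2 (22.2%, 20.8% and 16.01%). Across genes, expression relative to the other tumors correlated with transcript length at -0.08 to 0.23 in the null and -0.51 to 0.17 in the wild-type libraries, lowest in the same 3 tumors. Marker genes of macrophages were lower in the null tumors for 5 of 9 genes (summed level 136 to 296 against 212 to 586 CPM), as was 1 of 5 neutrophil markers (15.5 to 58.2 against 35.5 to 99.1 CPM), and none of these markers was at 0 in every tumor. Of the alveolar markers, 1 of 9 for type 2 cells was called higher and 1 of 7 for type 1 cells lower. For type 1 cells, 6 of the 7 log2 differences lay above 0. Over all genes tested 7.40% were called higher and 8.64% lower, so 1 call in such a short list shows no difference of the list. The part of all these markers in the results on clock genes was tested only through a covariate given below. In bulk tumors, fewer cells of a type and less RNA per cell cannot be told apart.

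Of the 10 clock genes, 3 were higher in the Max null tumors (Clock, Per2 and Cry1), 0 were lower and 7 did not pass the test (edgeR quasi-likelihood test, Benjamini-Hochberg adjusted p under 0.05 over all 14825 genes tested). Per2 differed most, by a log2 difference of 1.04 ± 0.24 (SE), followed by Clock (0.79 ± 0.22) and Cry1 (0.52 ± 0.17). Over all genes tested 16% were called, 7.40% higher and 8.64% lower, so the 3 of 10 stand beside a background in which such calls were common. The same counts held at an unadjusted p below 0.05 (3 higher, 0 lower), a threshold for which no share of all genes is given in this report. They also held with DESeq2 (3 higher, 0 lower), which called 20.3% of all genes, 8.99% higher. The median log2 difference of the 10 was 0.33, against -0.03 over all genes, and 8 of the 10 lay above 0. The 2 groups overlapped for every one of the 10, whereas 1.56% of all genes did not overlap.

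**Figure D1:**
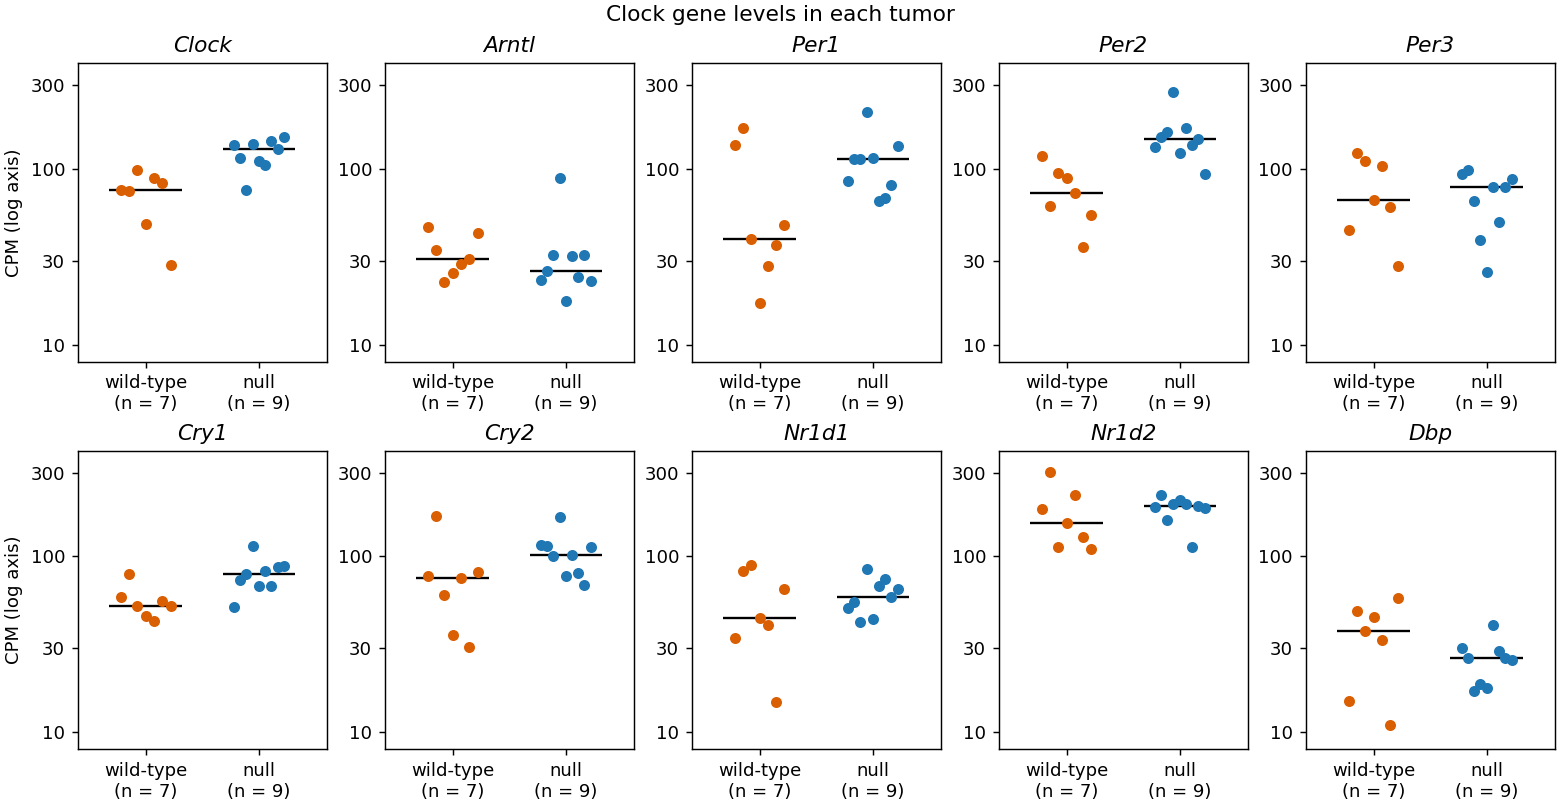
CPM of the 10 clock genes (log axis) in each tumor, orange for the 7 Max wild-type and blue for the 9 Max null tumors, with a line at each group's median. Per2 and Clock show 8 of 9 null tumors above the highest wild-type tumor, Dbp lies lower in most null tumors, and 1 null tumor stands above the rest for Arntl at 89.1 CPM.

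Among the activators, Clock encodes the partner of BMAL1 in binding DNA. In null tumors 1 to 9 it was at 138, 116, 76.0, 138, 110, 105, 144, 129 and 153 CPM, while wild-type tumors 1 to 7 had 76.0, 74.4, 99.0, 48.8, 88.7, 82.6 and 28.2 CPM. All null tumors but tumor 3 lay above the highest wild-type tumor, and wild-type tumors 4 and 7 were the lowest of all. The means were 123 ± 23.8 CPM (SD, n = 9) and 71.1 ± 24.5 CPM (n = 7), a fold of 1.73 (edgeR adjusted p = 0.0239). Without wild-type tumor 4 the call was lost (log2 difference 0.72, adjusted p = 0.0517), and it was kept on leaving out any other single tumor.

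Clock has the longest exon sequence of the 10 genes, 9925 bases, and its level moved with the length trend of the libraries. With group means removed, Pearson's r between the log2 level of Clock and that trend was 0.78 (p = 0.00284, adjusted over 30 relations of the 10 members with 3 library measures 0.0852, permutation test within groups, n = 16), Spearman's rho was 0.58 (p = 0.0369, adjusted 0.618), and r was 0.63 in the null and 0.83 in the wild-type tumors. Without the 2 tumors farthest from the median of the trend, wild-type 7 and 1, r was 0.74. With the share of multiply aligned reads r was -0.77 (p = 0.0110, adjusted 0.165) and rho -0.53 (p = 0.0625, adjusted 0.618), but -0.07 without wild-type tumors 7 and 4, and 0.22 within the null tumors, so this relation rests on those 2 tumors. With the length trend removed from every library, Clock differed by 0.44 ± 0.17 and no longer passed (adjusted p = 0.0993), in a fit that called 12.4% of all genes. Its part in the difference of Clock was not tested further, and since the multiply aligned share did not overlap between groups, that share and the genotype cannot be told apart.

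**Figure D2:**
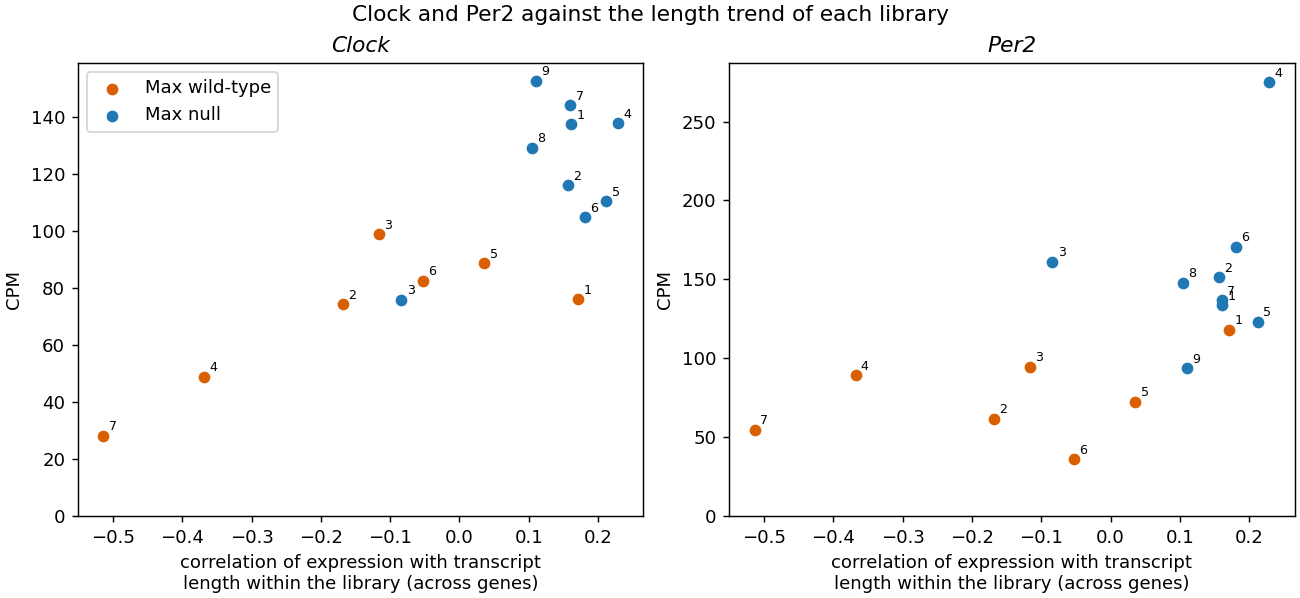
CPM of Clock (left) and Per2 (right) in each tumor against the correlation, across genes, of relative expression with transcript length in the same library. Points are tumors, orange for Max wild-type and blue for Max null, with tumor numbers beside them. Clock falls towards the left, where wild-type tumors 4 and 7 lie at 48.8 and 28.2 CPM; for Per2, 8 of 9 null tumors lie above the highest wild-type tumor.

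Arntl, the other activator, did not follow Clock. In null tumors 1 to 9 its level was 23.2, 26.1, 32.4, 89.1, 17.6, 31.9, 24.4, 32.5 and 22.9 CPM, while wild-type tumors 1 to 7 had 46.4, 34.5, 22.7, 25.6, 28.8, 30.6 and 43.3 CPM. Null tumor 4 stood far above the others of its group. Those other null tumors lay at 17.6 to 32.5 CPM, overlapping the lower part of the wild-type range of 22.7 to 46.4 CPM. The log2 difference was 0.01 ± 0.29 (edgeR adjusted p = 0.984; 33.3 ± 21.5 against 33.1 ± 8.87 CPM, SD). Without null tumor 4 the difference was -0.33, which did not pass either. Within tumors, Clock relative to Arntl was 2.02 ± 0.72 (log2, SD) in the null and 1.04 ± 0.87 in the wild-type tumors. That difference of 0.98 did not pass after adjustment over 6 such within-tumor comparisons of related clock genes, which were chosen after the values were seen (exact permutation test over 11440 splits, two-sided, p = 0.0246, adjusted 0.0737), though it did without null tumor 4 (1.15, adjusted p = 0.0298).

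The Period genes encode the inhibitors that, with CRY proteins, close the loop. In null tumors 1 to 9 Per2 was at 133, 151, 161, 275, 123, 171, 137, 148 and 93.8 CPM, while wild-type tumors 1 to 7 had 118, 61.5, 94.7, 89.1, 72.5, 35.9 and 54.6 CPM. All null tumors except tumor 9 were above the highest wild-type tumor, and null tumor 4 was highest. The means of 155 ± 50.4 and 75.2 ± 27.6 CPM (SD) differed by a fold of 2.06 (edgeR adjusted p = 0.0110). Leaving out any 1 of the 16 tumors kept the call, with log2 differences from 0.89 to 1.19, and so did removal of the length trend (0.83 ± 0.23, adjusted p = 0.0265). With 3 surrogate variables Per2 lost its call (0.79, adjusted p = 0.143), as did Clock (0.37, adjusted p = 0.281) and Cry1 (0.48, adjusted p = 0.127).

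Per1, the Period gene that also responds quickly to stress and hormone signals, ranged in the null tumors from 65.4 CPM through a median of 114 to 210, and in the wild-type tumors from 17.3 through 40.1 to 172. The 5 wild-type tumors numbered 3 to 7 lay below every null tumor, whereas wild-type tumors 1 and 2 (136 and 172 CPM) both lay above 8 of the 9. The log2 difference of 0.68 ± 0.41 did not pass (edgeR adjusted p = 0.262), and all 9 null tumors were above the wild-type median. Per1 had the widest spread within groups of the 10 genes, with an SD of 0.88 on the log2 scale, at the 80.7th percentile of all genes tested. Summed immediate early genes, which respond to handling and stress, were highest in null tumor 9 (887 CPM) and wild-type tumor 2 (825 CPM), tumors where Per1 ranked second in the null group (134 CPM) and highest in the wild-type group. In null tumor 4, highest in Per1 of all, they were at 404 CPM, low for the null range of 384 to 887. In wild-type tumor 1, with Per1 at 136 CPM, they were at 287 CPM, the lowest of all 16. Of the 10 immediate early genes, 0 were called between groups (edgeR, 3 higher and 0 lower at an unadjusted p below 0.05). Their part in Per1 was not tested.

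Per3, a Period gene not required for the basic rhythm, ranged from 25.8 through a median of 78.6 to 98.7 CPM in the null and from 27.9 through 66.4 to 123 CPM in the wild-type tumors. The log2 difference was -0.16 ± 0.31 (edgeR adjusted p = 0.754). Null tumor 4, the highest for Per1 and Per2, was next to lowest of its group for Per3 (39.4 CPM). Within tumors, Per2 relative to Per3 averaged 1.23 ± 0.85 in the null and 0.04 ± 0.90 in the wild-type tumors, with all 9 null tumors above the wild-type median. The difference of 1.19 did not pass over the 6 comparisons (exact permutation test, p = 0.0184, adjusted 0.0737), though it did without wild-type tumor 1 (1.41, adjusted p = 0.0360). Per1 relative to Per3 differed by 1.14 (exact permutation p = 0.0740, adjusted 0.148), and Per2 relative to Per1 by 0.04 (p = 0.929, adjusted 0.929). A rise particular to Per2 among the Period genes was therefore not shown.

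The Cryptochromes encode the stronger repressors of the CLOCK and BMAL1 pair. Null tumors 1 to 9 held Cry1 at 51.6, 73.0, 79.6, 115, 67.6, 82.7, 68.1, 87.0 and 88.6 CPM, and wild-type tumors 1 to 7 at 58.5, 79.8, 52.1, 45.5, 42.8, 55.5 and 52.2 CPM. Wild-type tumor 2 stood above the other 6 of its group, and 4 of the 9 null tumors were above it. Cry1 rose by a fold of 1.44 (79.2 ± 17.6 against 55.2 ± 12.1 CPM, SD; edgeR adjusted p = 0.0420). The call was near the threshold: of the 16 fits that each left out 1 tumor, 4 kept it, with log2 differences from 0.44 to 0.63 and adjusted p from 0.0238 to 0.0856. Cry1 had the narrowest spread of the 10, an SD of 0.31 on the log2 scale, at the 13.9th percentile of all genes.

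Cry2 ranged from 69.1 through a median of 102 to 167 CPM in the null and from 30.6 through 74.9 to 169 CPM in the wild-type tumors. The highest value of either group lay far from its neighbors, in null tumor 4 and wild-type tumor 2. The log2 difference was 0.47 ± 0.29 (edgeR adjusted p = 0.272), and without wild-type tumor 2 it was 0.80 with an adjusted p of 0.0442. Cry1 relative to Cry2 within tumors did not pass the test (-0.38 ± 0.40 against -0.28 ± 0.68, exact permutation p = 0.696, adjusted 0.835), so a difference between the 2 genes was not shown.

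The REV-ERB genes form the second loop. Null tumors 1 to 9 held Nr1d1 at 51.1, 55.4, 42.1, 84.6, 44.1, 68.0, 74.4, 58.4 and 65.0 CPM, and wild-type tumors 1 to 7 at 34.3, 83.2, 89.1, 44.4, 40.7, 14.8 and 65.4 CPM. The null tumors lay inside the wild-type range, whose lowest tumor was number 6. The log2 difference was 0.18 ± 0.28 (edgeR adjusted p = 0.685). Nr1d2 ranged from 113 through a median of 195 to 224 CPM in the null and from 110 through 155 to 301 CPM in the wild-type tumors, a log2 difference of 0.10 ± 0.21 (adjusted p = 0.774). Nr1d2 relative to Nr1d1 did not pass either (difference -0.19, exact permutation p = 0.625, adjusted 0.835).

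Dbp, the output factor of the PAR bZIP family, was the member with the largest difference below 0. Null tumors 1 to 9 held it at 30.002, 26.3, 17.2, 18.7, 17.8, 40.8, 29.1, 26.4 and 25.8 CPM, and wild-type tumors 1 to 7 at 15.1, 48.9, 37.4, 45.2, 33.6, 10.9 and 57.9 CPM. Wild-type tumors 2, 4 and 7 were the highest of all 16, and wild-type tumors 1 and 6 the lowest, so the null tumors lay within the wild-type range. The log2 difference of -0.46 ± 0.30 did not pass (edgeR adjusted p = 0.291; 25.8 ± 7.43 against 35.6 ± 17.3 CPM, SD). Its sign turned without those 3 tumors (0.08, adjusted p = 0.923), which are also the libraries with the most multiply aligned reads. Dbp has the shortest exon sequence of the 10 (1837 bases). In the reference annotation 29.3% of its exon bases overlap Sphk2 on the opposite strand, and Nr1d1 shares 9.67% with Thra. The strand setting of the counting is not given in the sources used here, so both genes are uncertain in level.

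**Figure D3:**
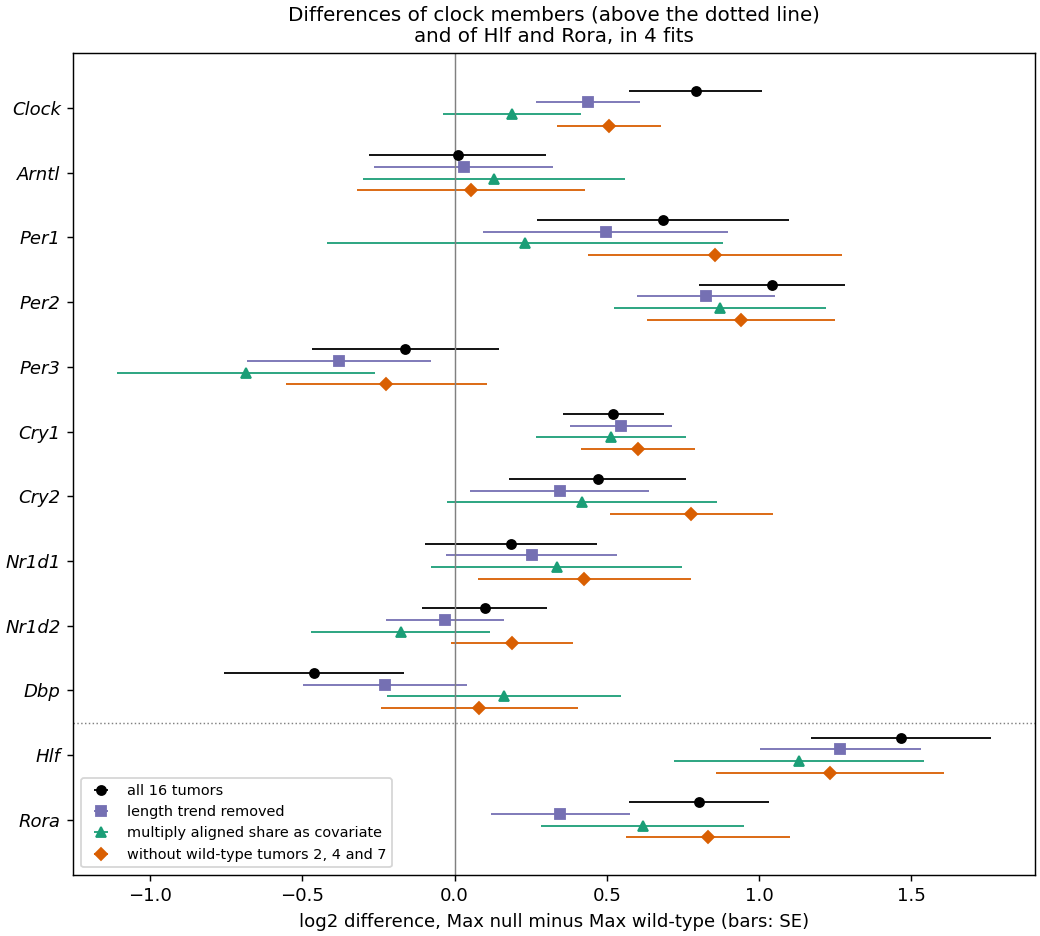
Log2 differences, Max null minus Max wild-type, of the 10 clock genes and, under the dotted line, of Hlf and Rora, with bars of 1 SE, in 4 fits. Black circles show all 16 tumors, purple squares the fit with the length trend removed, green triangles that with the multiply aligned share as covariate, and orange diamonds that without wild-type tumors 2, 4 and 7. Clock moves from 0.79 to 0.19 and Dbp from -0.46 to 0.16 with the covariate, while Per2 stays between 0.83 and 1.04.

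Without wild-type tumors 2, 4 and 7, 0 of the 10 clock genes passed (edgeR, adjusted p under 0.05). That fit had 4 wild-type tumors and called 1.68% of all genes at the same threshold. At an unadjusted p below 0.05 (edgeR), 4 of the 10 were higher and 0 lower. No share of all genes is given at that threshold. The log2 differences were then 0.94 ± 0.31 for Per2 (adjusted p = 0.118), 0.60 ± 0.19 for Cry1 (0.102) and 0.51 ± 0.17 for Clock (0.126). With the share of multiply aligned reads as covariate, 0 passed, with 0.0675% of all genes called at the adjusted threshold. Unadjusted, 1 was higher and 0 lower, again with no share of all genes given. Per2 was then 0.87 ± 0.35 (adjusted p = 0.281) and Cry1 0.51 ± 0.25 (0.376), whereas Clock was 0.19 ± 0.23 (0.757). With the length trend removed, Per2 and Cry1 passed and Clock did not. With the first component of 67 marker genes of other lung and immune cells as a covariate, in a fit that called 18.7% of all genes, all 3 passed, at 1.07 for Per2, 0.79 for Clock and 0.53 for Cry1 (adjusted p = 0.00752, 0.0186 and 0.0366).

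Levels can be compared between the genes only per length. In CPM per kb of exon sequence over the 16 tumors, Nr1d2 was highest (38.8 ± 10.7, SD) and was above Cry1, the next, in all 16 tumors. Cry1 (22.7), Cry2 (21.2), Nr1d1 (21.0) and Per2 (20.6) followed, then Dbp (16.4) and Per1 (16.3), and Per3 (12.02), Arntl (10.8) and Clock (10.1) were lowest. Below Nr1d2, each gene exceeded the next in 7 to 12 of 16 tumors, so neighbors in this order were not separated beyond their spread. The lengths came from a reference annotation, and the annotation behind the counting was not stated. The length trends of the libraries were not removed here, and Dbp and Nr1d1 are uncertain in level because of the overlaps given above.

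Coherence between the clock genes across tumors bears on sampling time, since tumors taken at different hours would place genes of 1 phase high together and genes of the opposite phase low. Of the 45 pairs of the 10 genes, with group means removed, 35 had a Pearson r above 0 and 10 below 0. None passed after adjustment over the 45, by Pearson or Spearman correlation (permutation test within groups, 100000 resamples, n = 16), and 7 had an unadjusted Pearson p below 0.05. The sign was the same in both groups for 28 of the 45. The points share their libraries, so a trend of a library moves several genes at once.

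The pair in phase, Nr1d1 and Dbp, was the most correlated. Pearson's r was 0.76 (permutation p = 0.00454, adjusted 0.102, n = 16) and Spearman's rho 0.68 (p = 0.00781, adjusted 0.318). The correlation was 0.37 within the null and 0.85 within the wild-type tumors, and 0.61 without wild-type tumors 6 and 3, the farthest from the median of Nr1d1. Without null tumor 4 it was 0.83, which passed (adjusted p = 0.0360). Wild-type tumor 6 was lowest of all 16 for both genes. Per3 with Dbp, also in phase, had r = 0.27 (permutation p = 0.375, adjusted 0.830, n = 16) and rho = 0.30 (p = 0.312, adjusted 0.826), and r = 0.61 without wild-type tumor 7 and null tumor 5. Nr1d1 with Nr1d2 had r = 0.06 (permutation p = 0.882, adjusted 0.952, n = 16) and rho = -0.12 (p = 0.697, adjusted 1.0).

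The pairs of opposite phase showed no clear inverse relation. Arntl with Dbp had r = -0.15 (permutation p = 0.507, adjusted 0.845, n = 16) and rho = -0.09 (p = 0.729, adjusted 1.0), and r = 0.24 without null tumor 4 and wild-type tumor 1. Leaving out any 1 tumor kept r below 0, at -0.26 to -0.017. Without wild-type tumors 2, 4 and 7 it was -0.31. Arntl with Nr1d1 had r = 0.16 (permutation p = 0.464, adjusted 0.845, n = 16) and rho = 0.03 (p = 0.910, adjusted 1.0), and r = 0.05 without the same 2 tumors. Single tumors ran both ways: null tumor 4 and wild-type tumor 1 had the highest Arntl of their groups (89.1 and 46.4 CPM) with low Dbp (18.7 and 15.1 CPM), but wild-type tumor 7 was high in both (43.3 and 57.9 CPM). The library of wild-type tumor 7 also had the lowest correlation of expression with transcript length (-0.51), whose part in this was not tested.

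Arntl with Cry1, whose RNA peaks late among the repressors, had r = 0.64 (permutation p = 0.0161, adjusted 0.181, n = 16) and rho = 0.59 (p = 0.0230, adjusted 0.318), and r = 0.43 without null tumor 4 and wild-type tumor 1. Arntl with Clock, its partner, had r = -0.16 (permutation p = 0.493, adjusted 0.845, n = 16) and rho = -0.29 (p = 0.279, adjusted 0.784), and r = 0.06 without wild-type tumor 7 and null tumor 3. Per1 with Per2 had r = 0.18 (permutation p = 0.572, adjusted 0.845, n = 16) and rho = -0.06 (p = 0.837, adjusted 1.0), and r = 0.01 without wild-type tumors 2 and 1. The pair with the smallest p, named for that after the values were seen, was Per1 with Cry1, with r = 0.68 (permutation p = 0.00177, adjusted 0.0796, n = 16) and rho = 0.58 (p = 0.0214, adjusted 0.318), and r = 0.56 without wild-type tumors 2 and 1.

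**Figure D4:**
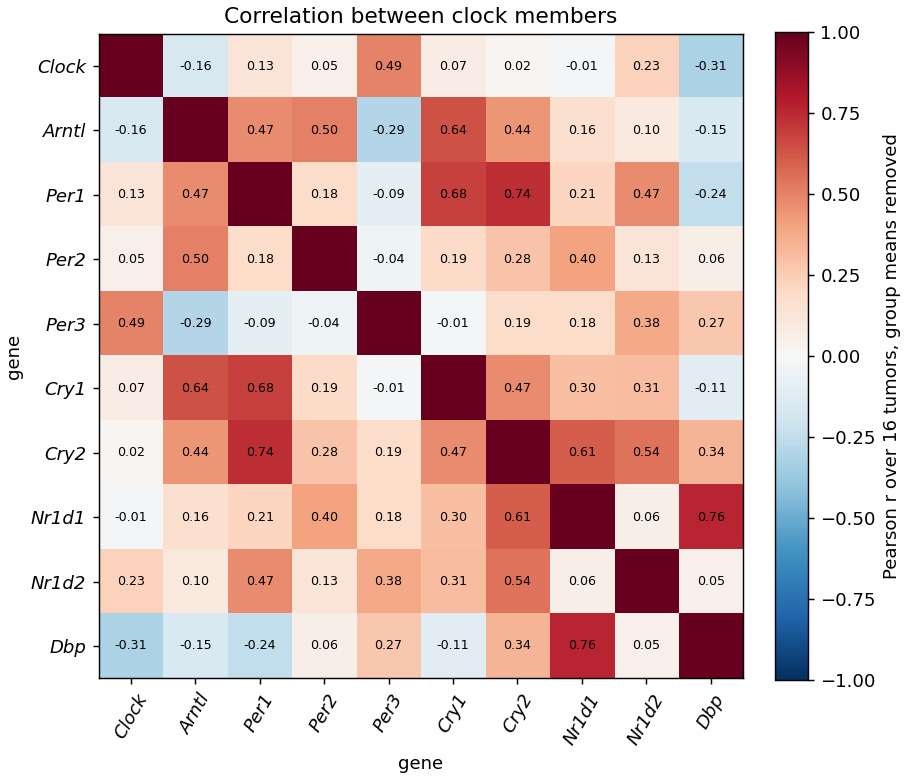
Pearson correlation of log2 CPM between each pair of the 10 clock genes over 16 tumors, with the group means removed; red is above 0 and blue below 0, and the value stands in each cell. Nr1d1 with Dbp (0.76), Per1 with Cry2 (0.74) and Per1 with Cry1 (0.68) are the reddest cells, and Arntl with Dbp (-0.15) is pale; none passed after adjustment.

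Single tumors stood apart for several of the genes at once. Null tumor 4 was the highest of the 9 null tumors for 6 of the 10 genes: Arntl (89.1 against 32.5 CPM in the next), Per1 (210 against 134), Per2 (275 against 171), Cry1 (115 against 88.6), Cry2 (167 against 116) and Nr1d1 (84.6 against 74.4). In its group it ranked 3 of 9 for Clock and 4 of 9 for Nr1d2, but 8 of 9 for Per3 (39.4 CPM) and 7 of 9 for Dbp (18.7 CPM). Of 23 other clock-linked genes, described below, it was highest of the null tumors for 8 (Npas2, Arntl2, Rorb, Nfil3, Ciart, Bhlhe41, Csnk1d and Usp2) and lowest for 2 (Tef and Csnk1e). Npas2, the paralog of Clock, was at 17.7 against 7.07 CPM in the next tumor, and Nfil3, a repressor at D-boxes, at 65.7 against 21.97 CPM. The relatives of Dbp differed: Tef was lowest (217 CPM against 222 in the next), while Hlf ranked 2 of 9 (145 CPM). The tumor had the most reads in genes (15.11 M) and a multiply aligned share of 10.8%. Of the neuroendocrine list, it had the highest Chga, Chgb and Syp of the null tumors (1423, 1893 and 372 CPM). Its Uchl1 was the lowest of the null tumors (224 CPM), and the other genes of that list lay between the extremes. The clock-linked and neuroendocrine genes were looked at after the tumor had been seen to stand apart. How often this tumor ranked highest over all genes is not given here, so a pattern particular to clock genes was not shown. Without null tumor 4, Per2 remained higher (0.89, adjusted p = 0.0188), as did Clock (0.77, adjusted p = 0.0401), and Cry1 was not called (0.44, adjusted p = 0.0753).

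Wild-type tumor 2 was among the 2 highest of all 16 tumors for 5 of the 10 genes, and wild-type tumors 4, 6 and 7 were each among the 2 lowest for 4 of them. Other null tumors than number 4 were among the 2 highest for at most 2 genes. The matching shares over all genes are not given here. Whether these tumors were taken at other hours was not tested, since no hour is given.

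**Figure D5:**
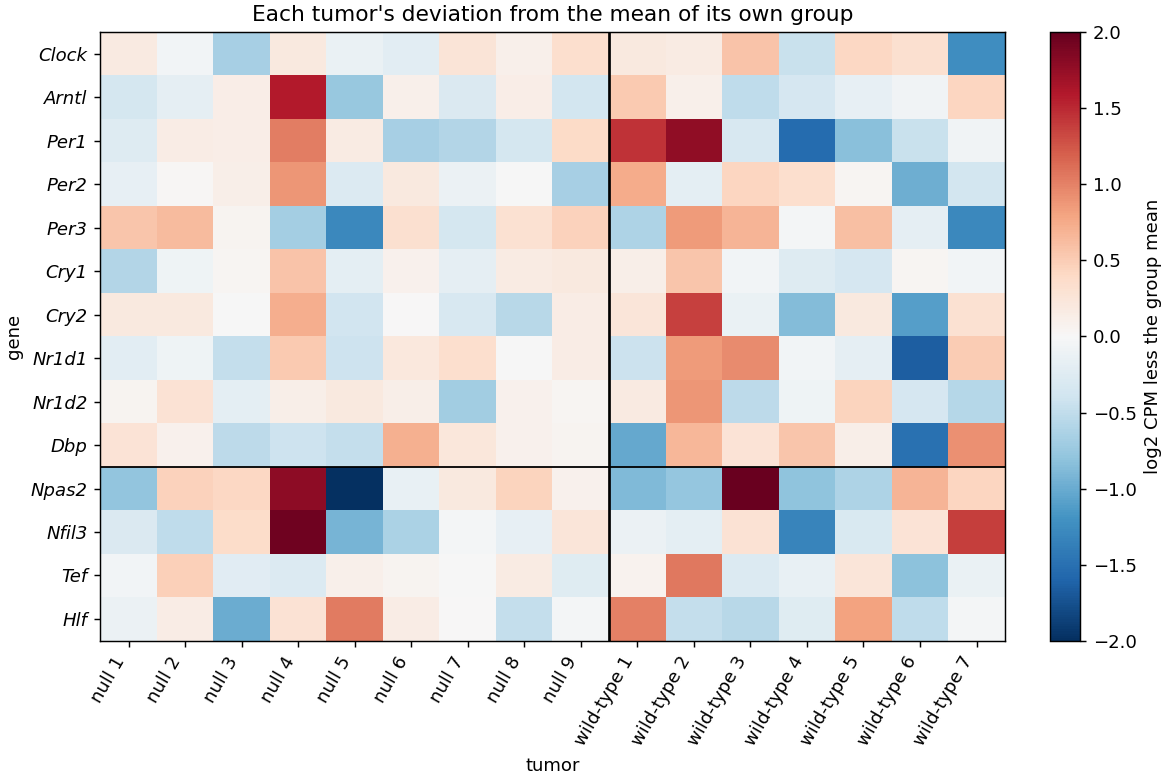
Log2 CPM less the mean of the tumor's own group for the 10 clock genes (above the horizontal line) and 4 clock-linked genes, in the 9 Max null (left of the vertical line) and 7 Max wild-type tumors; red is above and blue below the group mean, and colors are held at 2 beyond a deviation of 2. Null tumor 4 is red for Arntl, Per1, Per2, Cry1, Cry2, Nr1d1, Npas2 and Nfil3, paler red for Hlf, and blue for Per3 and Dbp; wild-type tumor 6 is blue for Nr1d1 and Dbp.

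The rest of the clock pathway was taken from a list of 23 genes, all of which were tested: paralogs, nuclear receptors and PAR bZIP factors, modifiers of PER and CRY stability, and outputs. Of these, 2 were higher in the null tumors (Hlf and Rora), 0 were lower and 21 did not pass (edgeR, with 5 higher and 1 lower at an unadjusted p below 0.05; DESeq2 called 4 higher and 0 lower). Over all genes tested, at the adjusted threshold, 7.40% were called higher by edgeR, near the share of this list, and 8.99% by DESeq2. The list's median log2 difference was 0.22, and 16 of the 23 lay above 0, beside -0.03 for all genes. Rora encodes a nuclear receptor that activates Arntl at the sites where REV-ERBs repress it, and Hlf encodes a PAR bZIP factor of the same family as Dbp.

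Hlf was at 59.3 to 243 CPM in the null tumors (mean 126 ± 50.8, SD, n = 9) against 28.3 to 83.3 CPM in the wild-type tumors (45.6 ± 22.7, n = 7), with null tumor 3 inside the wild-type range, a log2 difference of 1.47 ± 0.30 (edgeR adjusted p = 0.00616). Rora was at 7.92 to 20.5 CPM against 6.32 to 11.7 CPM, a log2 difference of 0.80 ± 0.23 (adjusted p = 0.0286). Neither Hlf (1.23, adjusted p = 0.0959) nor Rora (0.83, adjusted p = 0.115) passed without the 3 wild-type tumors, and Rora fell to 0.35 with the length trend removed (adjusted p = 0.328). With the multiply aligned share as covariate, 0 of the 23 passed, in a fit that called 0.0675% of all genes. At an unadjusted p below 0.05 (edgeR), 1 was then higher and 1 lower, with no share of all genes given at that threshold. With the length trend removed, 1 of the 23 was called higher and 1 lower, with 12.4% of all genes called. The limma-voom fit called 4 higher and 1 lower, with 16.5% of all genes called.

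Of the genes that did not pass, those with the smallest p were Bhlhe41, a repressor at E-boxes (log2 difference 0.84 ± 0.28, edgeR adjusted p = 0.0503), the PER kinases Csnk1e (-0.49 ± 0.19, adjusted p = 0.0867) and Csnk1d (0.29 ± 0.12, adjusted p = 0.0943), and Btrc, a ubiquitin ligase subunit that acts on PER proteins (0.53 ± 0.24, adjusted p = 0.134). Tef, the other relative of Dbp and Hlf, named after its value was seen, differed by 0.36 ± 0.21 (adjusted p = 0.251).

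The genes whose pattern over the 16 tumors was most like that of a clock gene were mostly outside the clock. By Pearson's r with group means removed, among the 14703 genes averaging 1 CPM or more, Nhej1 (0.87), Zfyve19 (0.84) and Zfp938 (0.83) were most like Dbp, and Nr1d1 ranked 56th. Son (0.84), Rtn4rl1 (0.83) and Nmnat3 (0.83) were most like Nr1d1, for which Dbp ranked 21st. Hacl1 (0.91), Mfsd4 (0.89) and Bcap29 (0.87) were most like Arntl, and without null tumor 4 these were 0.75, 0.64 and 0.84. Farp1 (0.86), Edc4 (0.86) and Syt17 (0.85) were most like Per1. These lists skip unnamed gene models, describe the highest of many correlations and share the libraries.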

How the data were processed

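The deposited files hold raw counts, 1 whole number of reads for each gene symbol and tumor. Tools in the submitters' processing notes were HTSeq 0.6.1, TopHat2 2.0.12, TopHat and bcl2fastq 1.8.4, with the build mm9; the annotation behind the counting was not stated. Totals of reads outside genes (29.2% to 45.6% of reads) stayed out of library sizes. Counts were filtered (filterByExpr, 14825 genes kept), scaled by TMM and tested with edgeR 4.0.16 (R 4.3.3), adjusted by Benjamini-Hochberg over all genes; SE is the log2 difference over the root of F. CPM use TMM-scaled library sizes, and log2 CPM a prior count of 2. Exon lengths came from the GENCODE annotation of GRCm38 and promoter windows from RefSeq; no coordinate of the files was used. Computations were tested on simulated data. Named genes were all members, called genes of the clock-linked list with the 4 of smallest p among the rest, and the 3 genes most like Dbp, Nr1d1, Arntl and Per1. A few genes of these lists are not reported here and were left out of their counts. The members and lists were chosen with earlier results of these data known. Alternatives were other scalings and filters, DESeq2 1.42.0, limma-voom (limma 3.58.1), covariates, surrogate variables (sva 3.50.0), a replicate block and leaving out tumors. Club, ciliated, endothelial, fibroblast, T and NK, and B cell marker lists had 0 genes called (edgeR; 1, 1, 2, 1, 1 and 2 at an unadjusted p below 0.05).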

Additional observations from a re-analysis of the deposited data

Results flagged for a closer look

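The spread of the 10 clock genes was checked in both groups, 20 sets of values in all, for a tumor far from its neighbors. The check used CPM, not the log2 CPM of the correlations, and high values lie farther apart in CPM. For independent, normally distributed values chance alone would give about 1 in 20. The sets share their tumors and were not shown to be normal, so the number flagged cannot be set against that rate. Max null tumor 4 stood apart for Arntl (89.1 CPM, next 32.5), Per1 (210 CPM, next 134), Per2 (275 CPM, next 171) and Cry2 (167 CPM, next 116). Max wild-type tumor 2 stood apart for Cry1 (79.8 CPM, next 58.5) and Cry2 (169 CPM, next 81.2).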

How the results depend on the processing

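Members called higher went from 3 to 1 with the tumor number as a replicate block (318 of all genes called, 2.15%, against 2378), to 1 with 3 surrogate variables (519, 3.50%; Cry2 at 0.73), and to 0 with the multiply aligned share as covariate (10 genes) or without wild-type tumors 2, 4 and 7 (256 genes, fewer samples). DESeq2 called 3612 genes. Leaving out 1 tumor gave 1471 to 3033 genes, lowest without wild-type tumors 4 and 7, and 1 to 4 members, all higher. It was 1 (Per2) without wild-type tumor 4, where 4.55% of all genes were called higher. It was 4 without wild-type tumor 2, where 5.33% of all genes were called higher. The causes were not tested. Equal tumor numbers do not pair the samples: deviations of equally numbered tumors correlated at -0.17 to 0.24, and in the block fit Per2 passed (1.17, adjusted p = 0.0426) and Clock (0.79, adjusted p = 0.142) and Cry1 (0.46, adjusted p = 0.201) did not. Per1 passed only in limma-voom (1.18, adjusted p = 0.0321). Pairs correlated after adjustment were 0 to 2 on leaving out 1 tumor, above 0 without null tumor 1, 4, 6 or 8 or wild-type tumor 6.

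Signs turned for values near 0. Arntl was -0.017 with upper-quartile factors, -0.0022 with the stricter filter, -0.11 with the replicate block, -0.12 with surrogate variables and -0.33 to 0.12 on leaving out 1 tumor. Nr1d2 was -0.18 with the multiply aligned covariate and -0.031 with the length trend removed. Dbp was 0.00087 in limma-voom, 0.10 with surrogate variables, 0.16 with the multiply aligned covariate and 0.082 without the 3 wild-type tumors. The correlation of Arntl with Dbp was 0.24 without the 2 farthest tumors, and that of Arntl with Nr1d1 -0.12 in the wild-type tumors alone (-0.044 to 0.31 leaving out 1). Nr1d1 with Nr1d2 was -0.12 by Spearman, -0.14 without the 3 wild-type tumors and -0.21 in the null tumors (-0.25 to 0.25 leaving out 1). Per1 with Per2 was -0.062 by Spearman (-0.029 to 0.33). Clock with Arntl was 0.031 in the null tumors and 0.064 without the 2 farthest tumors (-0.42 to 0.011). Within tumors, Per2 relative to Per1 was -0.057 without the 3 wild-type tumors (-0.29 to 0.35 leaving out 1), Cry1 relative to Cry2 -0.24 to 0.080 and Nr1d2 relative to Nr1d1 -0.43 to 0.029. The within-tumor comparisons and their alternatives were chosen after seeing the data. The lowest count of a member, 133 reads, carries a counting error of 8.67%, small beside the spread between tumors.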
